A study of Mus musculus with 14 samples.

Results

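The expression of 10 genes for inhibitory receptors of T cells was followed in 14 RNA-seq libraries of T cells sorted from mouse tumours. The genes, taken as a list by name, were Pdcd1, which encodes PD-1, and Tigit, Lag3, Havcr2, Cd160, Btla, Cd244a, Cd200, Vsir and Cd96. All 10 were found among the 25124 genes of the deposited table, and all 10 were among the 13434 that passed the filter on low counts. Inhibitory receptors damp signalling through the T cell antigen receptor when a ligand on another cell engages them. PD-1 binds PD-L1 and PD-L2 and recruits the phosphatase SHP-2, and antibodies to PD-L1 or PD-1 block that contact. T cells under lasting stimulation in tumours, regulatory T cells (Tregs) included, are known to carry several of these receptors together.

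All mice were female C57BL/6 of the labelled genotype GATIR Foxp3Cre-rfp Gata3Cre-yfp, aged 8 to 12 weeks, with subcutaneous AE17-OVA tumours, a mouse mesothelioma line that expresses ovalbumin. An intraperitoneal dose of 200 µg of anti-PD-L1 (clone MIH5) or isotype antibody (clone 2A3) was given on day 10, and tumours were collected at day 13. CD4, CD25, PD-1 and the RFP reporter served to sort PD-1+ Tregs (3 anti-PD-L1 and 2 isotype libraries), PD-1- Tregs (2 and 2) and other CD4 T cells (3 and 2), and Smart-seq2 libraries were made. How many animals each library holds is not stated in the labels, so p-values measure only the spread between these libraries, which may be technical.

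Total counts ran between 10638848 and 15030804 per library. PD-1+ Tregs had 10610 ± 641 genes with a count (SD, n = 5), PD-1- Tregs 8496 ± 345 (n = 4) and CD4 T cells 13489 ± 869 (n = 5). Of the 13434 genes tested, 758 (5.64%) had no count in any PD-1+ Treg library, 2180 (16.2%) in any PD-1- Treg library and 14 (0.104%) in any CD4 library, so a gene at 0 in the PD-1- Tregs was not rare. In 3 libraries, treated CD4 replicate 3, treated PD-1- replicate 2 and treated PD-1+ replicate 3, the Y-linked genes Ddx3y, Eif2s3y, Kdm5d and Uty summed to between 2767 and 2966 counts, against 0 or 1 in the other 11, although the labels give female mice. All 3 are anti-PD-L1 libraries with replicate number 3 in the bracketed code of their titles (the bracket number), and they span the 3 populations. Whether they come from the same animals or pool is not stated, and the fit treated all libraries as independent. No isotype library held more than 1 such count, so these libraries are unbalanced over treatment. Results for the receptors that passed the test are given with and without these 3 libraries. Il2ra, which encodes the CD25 of the sort, stood at 192 to 391 CPM (counts per library scaled to 1000000) in PD-1+ Tregs and 247 to 662 in PD-1- Tregs, against 13.4 to 79.5 in CD4 T cells. Foxp3, the defining factor of Tregs, stood at 15.9 to 156 CPM in PD-1+ Tregs and 114 to 198 in PD-1- Tregs, against 16.3 to 55.0 in CD4 T cells, so the PD-1+ Tregs overlapped the CD4 T cells.

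PD-1 protein was used in the sort, so Pdcd1 between the Treg types checks the labels and is no finding. Pdcd1 (chromosome 1, 94038305 to 94052553, minus strand, GRCm38.p6) stood at 227, 246 and 125 CPM in treated PD-1+ Tregs and 115 and 85.6 in isotype PD-1+ Tregs. It stood at 45.7 and 46.5 CPM in treated and 39.9 and 21.7 in isotype PD-1- Tregs. Every PD-1+ library was above every PD-1- library, the direction the gate implies, but Pdcd1 RNA was present in all 4 PD-1- libraries. In sorted bulk samples such as these, fewer cells that express a gene and less RNA per cell cannot be told apart. The difference was 1.91 ± 0.36 on the log2 scale (SE; edgeR quasi-likelihood test, adjusted p = 0.0124; 0.0260 without the Y-linked libraries). Limma-voom (0.0910), a fit of the 9 Treg libraries alone (0.168) and an edgeR fit with treatment and bracket number as a block (0.0616) ended that call.

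Pdcd1 in CD4 T cells stood at 196, 145 and 275 CPM after anti-PD-L1, against 85.3 and 45.4 after isotype. The treated CD4 mean of 205 ± 65.2 CPM was the highest of the 6 groups, followed by treated PD-1+ Tregs at 199 ± 64.9, and these overlapped. Isotype PD-1+ Tregs (100.3 ± 20.8), isotype CD4 T cells (65.4 ± 28.2), treated PD-1- Tregs (46.1 ± 0.583) and isotype PD-1- Tregs (30.8 ± 12.8) followed, of which isotype CD4 T cells overlapped treated PD-1- Tregs. PD-1+ Tregs did not pass against CD4 T cells (0.29 ± 0.32, adjusted p = 0.971). Pdcd1 was lower in PD-1- Tregs than in CD4 T cells by the test (-1.62 ± 0.35, adjusted p = 0.0281), a difference in which the gate takes part. That call was lost without isotype CD4 replicate 1 (adjusted p = 0.126), without treated CD4 replicate 1 (0.0698) or 3 (0.0842), and without the Y-linked libraries (0.0734).

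Tigit, whose receptor binds PVR and nectin-2 and competes for them with the activating receptor CD226, had the lowest adjusted p of the 10 genes between the Treg types. Tigit (chromosome 16, 43626137 to 43665125, minus strand) stood at 821, 603 and 781 CPM in treated PD-1+ Tregs and 311 and 339 in isotype PD-1+ Tregs. It stood at 155 and 209 CPM in treated and 30.6 and 52.0 in isotype PD-1- Tregs. The lowest PD-1+ library was above the highest PD-1- library. The difference between the Treg types was 2.49 ± 0.24 on the log2 scale (adjusted p = 0.000403), it was 2.60 ± 0.27 without the Y-linked libraries (adjusted p = 0.00366), and it was past the threshold in all 24 alternative settings.

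Tigit in CD4 T cells stood at 269, 241 and 405 CPM after anti-PD-L1, against 85.2 and 81.4 after isotype. Isotype PD-1+ Tregs (325 ± 20.4) and treated CD4 T cells (305 ± 87.7) were the only neighbours in the order of the 6 groups whose libraries overlapped. Treated PD-1+ Tregs (735 ± 116) stood above them, and treated PD-1- Tregs (182 ± 38.6), isotype CD4 T cells (83.3 ± 2.68) and isotype PD-1- Tregs (41.3 ± 15.1) below. PD-1+ Tregs were above CD4 T cells by 1.62 ± 0.22 (adjusted p = 0.00673; 0.0220 without the Y-linked libraries), a call lost without isotype CD4 replicate 1 (0.0750) or 2 (0.0814). PD-1- Tregs against CD4 T cells gave -0.88 ± 0.22, just short of the threshold (adjusted p = 0.0512), and 6 of 24 alternative settings called it.

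**Figure D1:**
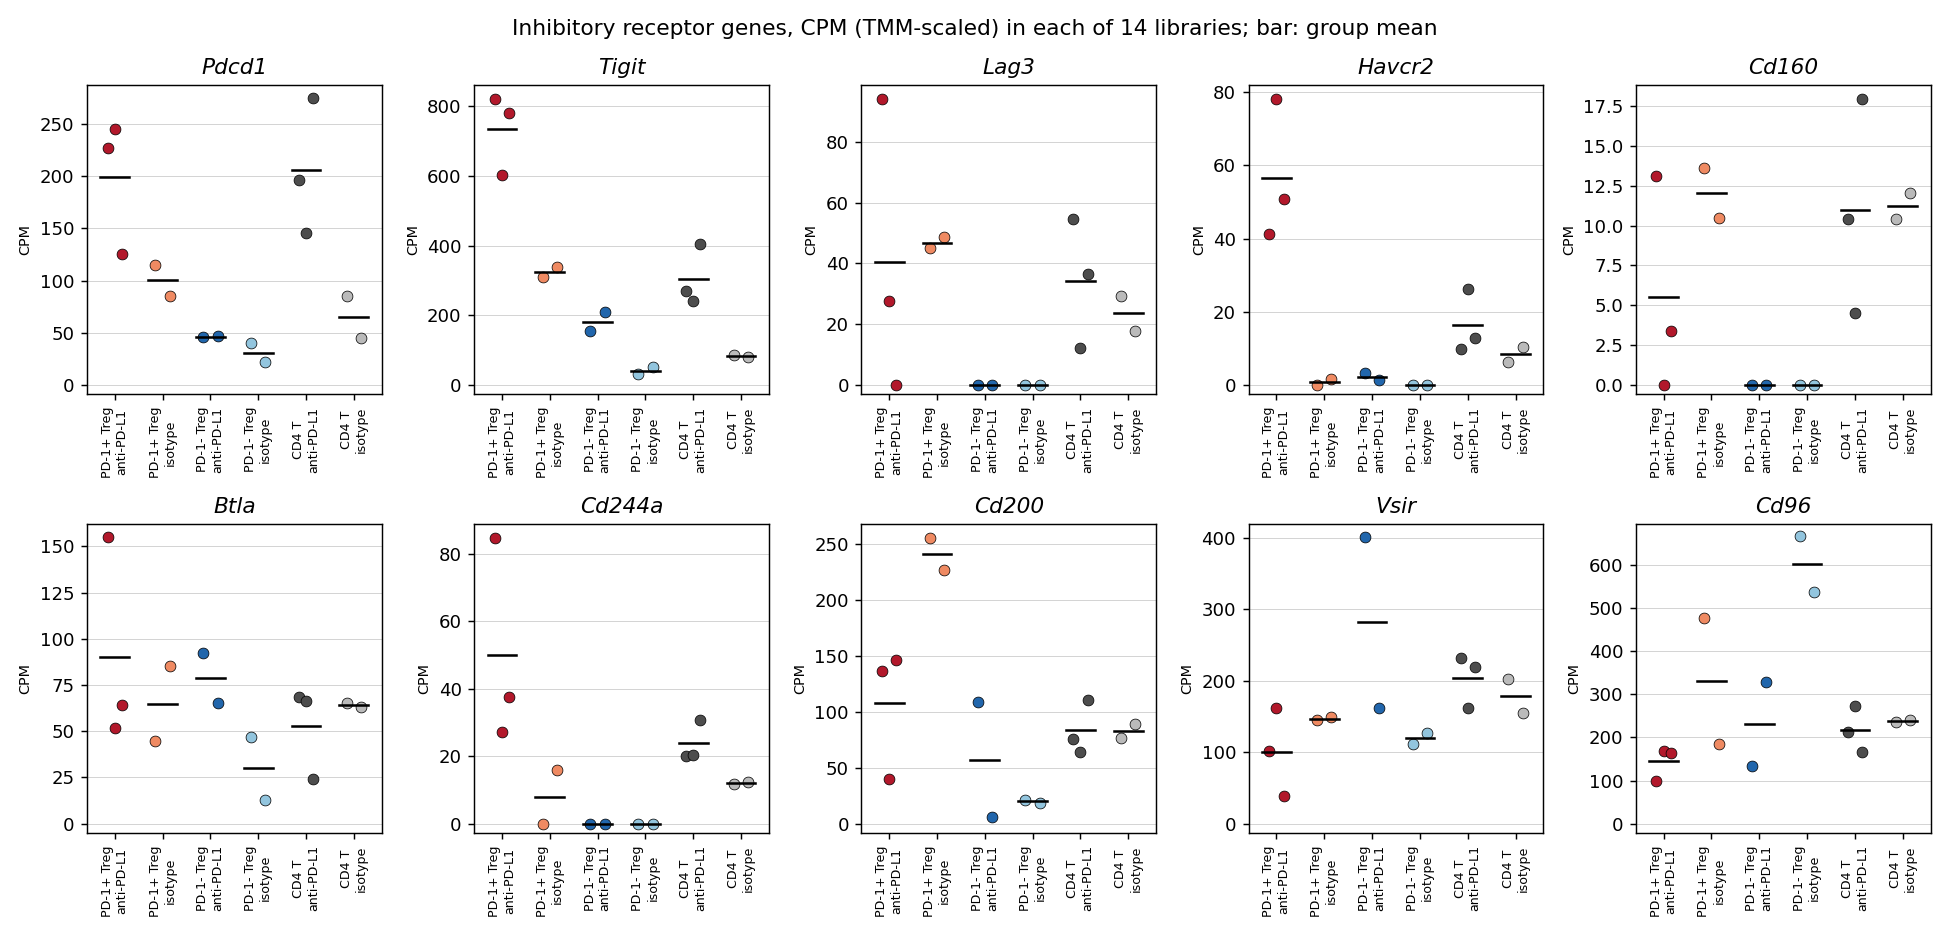
Each panel plots 1 gene, with CPM from TMM-scaled library sizes on a linear vertical axis and the 6 groups along the horizontal axis; points are libraries and bars group means. Tigit reaches 603 to 821 CPM in treated PD-1+ Tregs, while Cd160 and Cd244a sit at 0 in all 4 PD-1- Treg libraries.

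After anti-PD-L1, Tigit was the 1 receptor that passed the test in any treatment comparison. In PD-1- Tregs it rose by 2.14 ± 0.34 (adjusted p = 0.00684), with 155 and 209 CPM after anti-PD-L1 against 30.6 and 52.0 after isotype. It was also past the threshold as the average over the 3 populations, 1.73 ± 0.19 (adjusted p = 0.00115). Without the Y-linked libraries these were 1.88 ± 0.35 (0.0206) and 1.53 ± 0.18 (0.00734). Within PD-1+ Tregs (1.18 ± 0.31, adjusted p = 0.527) and CD4 T cells (1.87 ± 0.32, adjusted p = 0.186) Tigit did not pass, although no treated library overlapped an isotype library in either. DESeq2 put both past the threshold (0.00660 in PD-1+ Tregs, and 2.06e-05 in the CD4 T cells), while limma-voom (0.292) and a fit of the 4 PD-1- libraries alone (0.899) ended the call in PD-1- Tregs. The fold in PD-1+ Tregs minus that in PD-1- Tregs was -0.96 ± 0.44 (adjusted p = 0.301), so a difference in response was not shown.

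Pdcd1 had every treated library above every isotype library in each population, without passing the test. The folds were 0.99 ± 0.47 in PD-1+ Tregs (adjusted p = 0.615), 0.58 ± 0.50 in the PD-1- Tregs (0.635) and 1.65 ± 0.49 in the CD4 T cells (1, with an unadjusted p of 0.00517). The average over populations was 1.07 ± 0.28 (adjusted p = 0.0976), and it was 0.0991 without the Y-linked libraries. That average was called by DESeq2 (0.00148) and without isotype PD-1- replicate 1 (0.0471). Pdcd1 and Tigit were the 2 of 10 receptors with treated above isotype libraries in all 3 populations, against 84 of 13434 genes (0.625%). The level of B cell markers also differed between treated and isotype libraries of PD-1+ Tregs and CD4 T cells: 7 of 8 were in the table, and their sum was 22.9 to 82.2 CPM in treated against 257.5 to 486.9 in isotype PD-1+ Tregs, 42.1 to 411 against 96.3 to 101.5 in PD-1- Tregs, and 54.7 to 91.4 against 214.6 to 241.3 in CD4 T cells. Ms4a1, Fcmr and Blk were at 0 in treated PD-1+ Tregs, Ms4a1, Pax5 and Blk in treated PD-1- Tregs. The 7 neutrophil and mast cell markers summed to 19.7 to 38.3 CPM in treated against 4.50 to 15.2 in isotype PD-1+ Tregs, 17.5 to 56.8 against 0 in PD-1- Tregs, and 24.0 to 31.2 against 15.9 to 16.7 in CD4 T cells, above isotype without overlap in each, with Mcpt4 at 0 throughout. The 10 tumour and stroma markers summed to 251 to 569 CPM in treated against 821 to 1083 in isotype CD4 T cells, and overlapped in both Treg types. CD8 T and NK cell markers, given further on, were also higher in treated PD-1+ Tregs and CD4 T cells. The part of these cells in the receptor values was not tested.

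**Figure D2:**
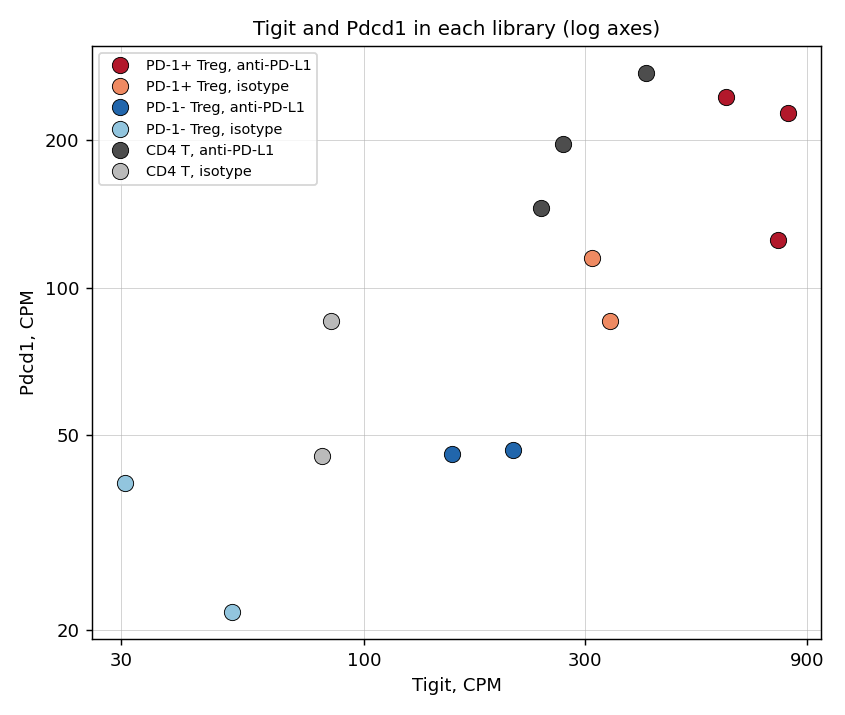
Tigit (horizontal) is plotted against Pdcd1 (vertical), both in CPM on log axes, with 1 point per library. Within each population the treated libraries lie above and to the right of the isotype libraries, and 1 isotype CD4 library, at 45.4 CPM of Pdcd1, lies among the PD-1- Tregs on the vertical axis.

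The windows before the starts of these genes are shown because both had treated libraries above isotype libraries in every population. RefSeq windows on GRCm38.p6 were matched for 9 of the 10 genes, Lag3 being the exception. They hold the 250 bases before the start that the table gives and were searched on both strands for GGAAA, the core bound by NFAT factors, TGANTCA, bound by AP-1, and TGTGGT, bound by RUNX factors. Letters in capitals mark matches, TTTCC being the reverse complement of GGAAA and ACCACA that of TGTGGT. The Tigit window, chr16:43664185-43664434 on the minus strand, lies inside the gene's full annotated span, and the Pdcd1 window is chr1:94052554-94052803 on the minus strand.
Tigit: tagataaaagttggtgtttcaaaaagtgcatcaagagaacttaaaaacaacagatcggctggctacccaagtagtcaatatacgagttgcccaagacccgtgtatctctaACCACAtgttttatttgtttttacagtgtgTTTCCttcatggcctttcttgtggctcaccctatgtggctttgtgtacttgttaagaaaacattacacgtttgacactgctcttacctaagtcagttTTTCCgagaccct
Pdcd1: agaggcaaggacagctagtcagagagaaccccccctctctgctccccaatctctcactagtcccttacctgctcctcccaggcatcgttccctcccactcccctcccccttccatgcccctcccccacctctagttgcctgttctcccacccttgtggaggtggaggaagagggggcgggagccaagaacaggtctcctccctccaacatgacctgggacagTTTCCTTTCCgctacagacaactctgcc
GGAAA was found in 5 of the 10 windows of the receptors (Cd160 has a pair of windows), against 55.6% of all 32851 windows. TGANTCA was found in 2 of 10, those of Cd244a and Havcr2, against 6.75%. TGTGGT was found in 6 of 10, those of Btla, Cd160 (both), Cd96, Havcr2 and Tigit, against 14.0%. A match is a string of letters and not a shown binding site.

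Lag3, Cd160 and Cd244a were read in most PD-1+ Treg and all CD4 libraries and almost nowhere in PD-1- Tregs. LAG-3 binds MHC class II, CD160 binds HVEM, and Cd244a encodes 2B4, the receptor of CD48. Lag3 stood at 94.0, 27.6 and 0 CPM in treated and 44.9 and 48.5 in isotype PD-1+ Tregs, against a single count in the 4 PD-1- libraries. Cd244a stood at 84.7, 27.3 and 37.6 CPM in treated and 0 and 15.9 in isotype PD-1+ Tregs, and Cd160 at 13.1, 0 and 3.41 CPM in treated and 13.6 and 10.5 in isotype PD-1+ Tregs. Both were at 0 in all 4 PD-1- libraries. Each of the 3 genes was at 0 in 1 PD-1+ library, so the Treg types overlapped at 0.

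Lag3 in CD4 T cells stood at 54.5, 12.2 and 36.4 CPM after anti-PD-L1, against 29.3 and 17.8 after isotype. Cd244a stood at 20.1, 20.4 and 30.8 CPM after anti-PD-L1, against 11.8 and 12.3 after isotype. Cd160 stood at 10.4, 4.54 and 17.9 CPM after anti-PD-L1, against 10.4 and 12.0 after isotype. For all 3 genes every PD-1- library lay below every CD4 library.

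Between the Treg types Lag3 passed the test (adjusted p = 0.0272; 0.0176 without the Y-linked libraries), and its pooled counts gave a ratio of 2069 with a 95% counting interval of 371 to 81761. Cd244a passed (adjusted p = 0.0278; 0.117 without the Y-linked libraries) and was at least 129-fold higher in PD-1+ Tregs, taking 3 counts per library as the floor for a count of 0. Cd160, at least 31.7-fold higher by the same floor, missed the threshold (adjusted p = 0.0501; 0.163 without the Y-linked libraries). Cd160 was called by DESeq2 (7.66e-06), limma-voom (0.00590) and limma on log2(RPKM + 0.1) (0.0444), and without treated PD-1+ replicate 2 (0.0236). By the same floor, Lag3 was at least 168-fold higher in PD-1+ Tregs. Its ratio of 2069 rests on 1 count in PD-1- Tregs and is not comparable with these bounds. An edgeR fit of the Treg libraries alone ended the calls of Lag3 (0.246) and Cd244a (0.268). Fits with the title's replicate number (0.0762 and 0.108) or treatment and bracket number (0.156 and 0.205) as a block also ended both. The Lag3 call was lost without either isotype CD4 library, treated CD4 replicate 1 or 3, either isotype PD-1- library, treated PD-1- replicate 2 or either isotype PD-1+ library (adjusted p 0.0534 to 0.0667). The Cd244a call was lost without any CD4 library, either isotype PD-1- library, treated PD-1- replicate 2 or isotype PD-1+ replicate 2 (0.0535 to 1.00).

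PD-1- Tregs were below CD4 T cells for Lag3 (adjusted p = 0.0347; pooled CD4 to PD-1- ratio 1449, counting interval 260 to 57266), for Cd244a (0.0321; at least 74.5-fold lower) and for Cd160 (0.0498; at least 43.1-fold lower). Without the Y-linked libraries the values were 0.0261 for Lag3, 0.133 for Cd244a and 0.172 for Cd160. The Lag3 and Cd160 calls were both lost without any 1 of 11 libraries, all but the 3 treated PD-1+ libraries (0.0509 to 0.0912 for Lag3 and 0.0654 to 0.129 for Cd160). The Cd244a call was lost without any 1 of 8 libraries, the 5 CD4 libraries, both isotype PD-1- libraries and treated PD-1- replicate 2 (0.0579 to 0.0887). By the floor of 3 counts, Lag3 was at least 117-fold lower in PD-1- Tregs than in CD4 T cells. EdgeR fits with the title's replicate number as a block ended all 3 calls (0.0936 for Lag3, 0.122 for Cd244a and 0.145 for Cd160). So did treatment and bracket number as a block (0.166, 0.166 and 0.215 in that order). Other size factors (RLE) ended that of Cd160 (0.0525). PD-1+ Tregs did not pass against CD4 T cells for any of the 3 genes, with folds of 0.61 ± 1.36 for Lag3, -0.44 ± 1.49 for Cd160 and 0.24 ± 1.32 for Cd244a.

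CD8 T and NK cells are known to carry all 3 receptors. Their 8 markers summed to 26.3 to 96.4 CPM in PD-1+ Tregs, 0 to 57.4 in PD-1- Tregs and 40.1 to 81.9 in CD4 T cells, and Cd8b1, Klrb1c, Ncr1 and Gzma were at 0 in all 4 PD-1- libraries. The 12 macrophage and monocyte markers summed to 3973 to 7159 CPM in PD-1+ Tregs, 464.5 to 1024 in PD-1- Tregs and 2761 to 6855 in CD4 T cells, with C1qa and Fcgr1 at 0 in all 4 PD-1- libraries. Of these 12, 9 were higher in PD-1+ than in PD-1- Tregs by the test and none was lower, where 4.28% of all genes passed in either direction. By treatment, the CD8 T and NK cell sum was 63.5 to 96.4 CPM in treated against 26.3 to 52.0 in isotype PD-1+ Tregs, and 48.3 to 81.9 against 40.1 to 41.1 in CD4 T cells, without overlap. In PD-1- Tregs it was 0 to 35.2 CPM in treated against 1.58 to 57.4 in isotype libraries, which overlapped. The part of either cell type in the receptor values, treatment differences included, was not tested.

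Havcr2, which encodes TIM-3, was read in all treated PD-1+ Treg libraries and hardly in the isotype ones. It stood at 41.2, 78.1 and 50.8 CPM after anti-PD-L1, against 0 and 1.74 after isotype. In PD-1- Tregs it stood at 3.33 and 1.26 CPM after anti-PD-L1, against 0.0931 and 0 after isotype, which is 60 counts against 1. In CD4 T cells it stood at 9.95, 26.3 and 12.8 CPM after anti-PD-L1, against 6.36 and 10.4 after isotype, and these overlapped. The fold in PD-1+ Tregs, 6.01 ± 2.19, did not pass after adjustment (edgeR's unadjusted p = 0.0175, adjusted p = 0.595; 0.697 without the Y-linked libraries), and the average over populations was 4.11 ± 1.17 (adjusted p = 0.131). DESeq2 (2.94e-05), limma-voom (0.0183) and limma on log2(RPKM + 1) (0.0347) called the change in PD-1+ Tregs. Among PD-1- Tregs the pooled ratio was 51.4 with a counting interval of 8.89 to 2066, and the test gave an adjusted p of 0.214. PD-1+ against PD-1- Tregs (4.29 ± 1.47, adjusted p = 0.113) and PD-1- Tregs against CD4 T cells (-5.03 ± 1.52, adjusted p = 0.0770) also fell short. TIM-3 is known from macrophages and dendritic cells too. The macrophage and monocyte sums were higher in PD-1+ than in PD-1- Tregs, as given above. By treatment within PD-1+ Tregs they were 3973 to 5298 CPM in treated and 4862 to 7159 in isotype libraries, which overlapped. The 9 dendritic cell markers were Itgax, Flt3, Zbtb46, Xcr1, Clec9a, Cd209a, Ccr7, Siglech and Batf3. They summed to 1040 to 2117 CPM in treated and 807 to 1110 in isotype PD-1+ Tregs, which also overlapped. Clec9a and Siglech were at 0 in the isotype libraries. The part of these cells in the Havcr2 values was not tested.

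Cd96, Cd200, Btla and Vsir were read in every library of every population, and none passed edgeR's test in any comparison. Cd96, whose receptor shares the ligand PVR with TIGIT, stood at 99.4, 169 and 165 CPM in treated against 477 and 185 in isotype PD-1+ Tregs. It stood at 134 and 329 CPM in treated against 667 and 537 in isotype PD-1- Tregs, and at 213, 273 and 166 against 236 and 240.0 in CD4 T cells. Treated libraries lay below isotype libraries in both Treg types and overlapped them in CD4 T cells. The folds were -1.20 ± 0.44 in PD-1+ Tregs (adjusted p = 0.595), -1.38 ± 0.49 in the PD-1- Tregs (0.159) and -0.90 ± 0.26 as the average over populations (0.141). That average was called without treated PD-1- replicate 2 (0.0322) and by DESeq2 (0.0200), and limma-voom called the change in PD-1- Tregs (0.0499).

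Cd200 encodes a surface ligand of the inhibitory receptor CD200R1, and is listed with the receptors. It stood at 137, 39.7 and 146 CPM in treated against 256 and 227 in isotype PD-1+ Tregs, and at 109 and 5.72 in treated against 21.6 and 18.7 in isotype PD-1- Tregs. Treated libraries were the lower ones in PD-1+ Tregs and straddled the isotype libraries in PD-1- Tregs. Among CD4 T cells they overlapped at 76.1, 64.3 and 111 CPM in treated against 76.3 and 89.4 in isotype libraries. PD-1+ Tregs were 2.24 ± 0.68 above PD-1- Tregs on the log2 scale (adjusted p = 0.0843), which became 3.90 with an adjusted p of 0.00158 without treated PD-1- replicate 1 and 1.80 with 0.0444 without treated PD-1- replicate 2. Without treated PD-1- replicate 1, PD-1- Tregs against CD4 T cells was -2.96 (adjusted p = 0.00499, against 0.219 with all libraries). Without treated PD-1- replicate 2, the treatment fold in PD-1+ Tregs minus that in PD-1- Tregs was -3.62 (adjusted p = 0.0297, against -2.67 ± 1.29 and 0.336 with all libraries).

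Vsir encodes VISTA, an inhibitory molecule known from myeloid cells and T cells. It stood at 101, 162 and 39.0 CPM in treated against 144 and 149 in isotype PD-1+ Tregs, and at 401 and 162 in treated against 112 and 126 in isotype PD-1- Tregs. The treated libraries lay on both sides of the isotype libraries in PD-1+ Tregs and above them in PD-1- Tregs. Among CD4 T cells they overlapped at 232, 161 and 218 CPM in treated against 202 and 155 in isotype libraries. The fold was 1.24 ± 0.57 in PD-1- Tregs (adjusted p = 0.249; 1.72 ± 0.39 and 0.0420 without the Y-linked libraries, which leaves 1 treated PD-1- library) and -0.55 ± 0.51 in PD-1+ Tregs (adjusted p = 1). The treatment fold in PD-1+ Tregs minus that in PD-1- Tregs was -1.79 ± 0.76 (edgeR, adjusted p = 0.263).

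Btla encodes a receptor that, like CD160, binds HVEM. It stood at 155, 51.7 and 64.1 CPM in treated against 44.7 and 85.2 in isotype PD-1+ Tregs, at 92.5 and 65.1 against 47.1 and 13.0 in PD-1- Tregs, and at 68.3, 66.1 and 24.4 against 65.3 and 63.1 in CD4 T cells. Treated libraries were above isotype libraries in PD-1- Tregs and overlapped them elsewhere. All 6 group means lay between 30.1 and 90.3 CPM, and the folds between populations ran from -0.26 to 0.65 with the lowest adjusted p at 0.655.

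**Figure D3:**
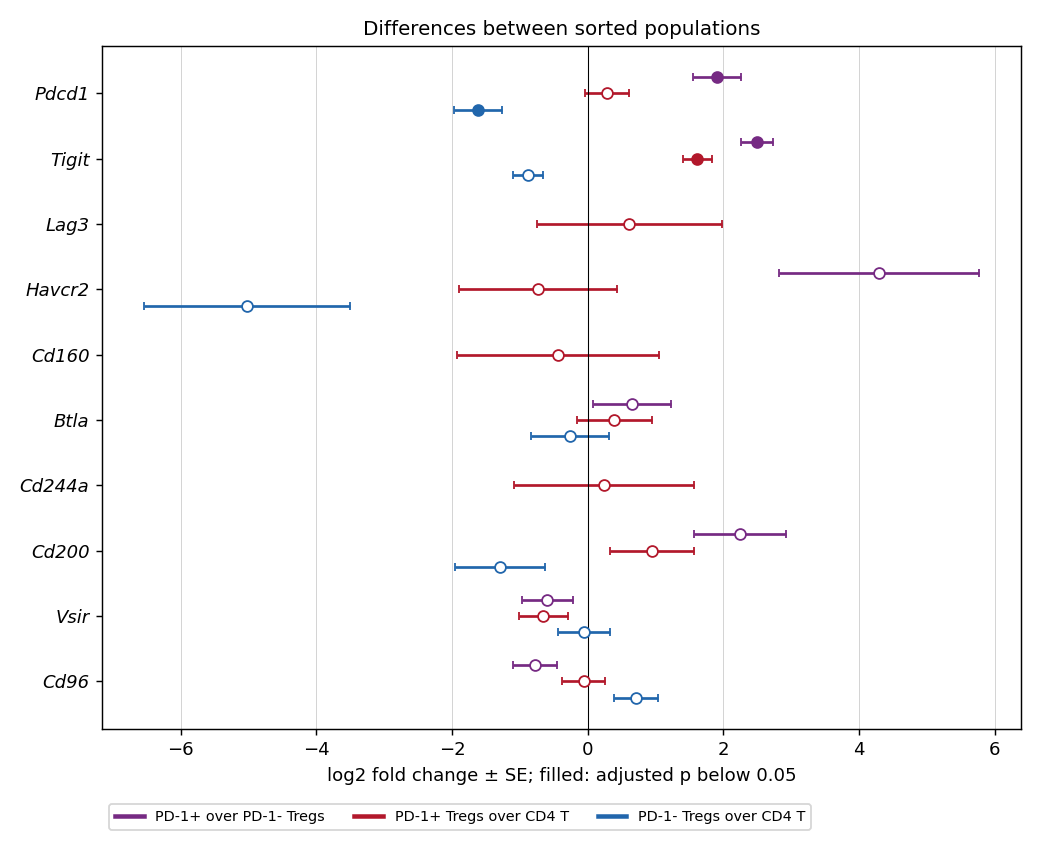
Log2 fold changes between the sorted populations (horizontal axis) with SE bars for each gene (rows), averaged over treatments; filled points have an adjusted p below 0.05, and comparisons with 0 or 1 count in the PD-1- Tregs (Lag3, Cd160 and Cd244a) are left out. Tigit lies at 2.49 for PD-1+ over PD-1- Tregs and at 1.62 for PD-1+ Tregs over CD4 T cells, both filled.

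Counted over the list, 4 of 10 receptors were higher in PD-1+ than in PD-1- Tregs (Pdcd1, Tigit, Lag3 and Cd244a) and none lower, where 575 of all 13434 genes (4.28%) passed in either direction, 511 of them higher. The median log2 fold was 2.37 over the 10 genes and 0.42 over all genes tested. Without Pdcd1, which the gate used, 3 of 9 passed. In PD-1+ Tregs against CD4 T cells 1 of 10 passed, Tigit, against 0.350% of all genes, and the medians were 0.26 for the receptors and -0.23 for all genes. In PD-1- Tregs against CD4 T cells 4 of 10 were lower (Pdcd1, Lag3, Cd160 and Cd244a), against 3.60% of all genes in either direction, and the medians were -1.46 and -0.94. Without Pdcd1, in whose difference the gate takes part, 3 of 9 were lower. The medians of the receptors include Pdcd1. Lag3, Cd160 and Cd244a enter the medians with PD-1- Tregs by their rank only, since they lie at the end of the order as fitted and at their bounds alike.

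By overlap alone, and leaving out Pdcd1, whose separation the gate set, Tigit was the 1 of 9 receptors whose PD-1+ libraries all lay above all PD-1- libraries (background 4.02% of genes without overlap), none separated PD-1+ Tregs from CD4 T cells (6.43%), and Lag3, Havcr2, Cd160 and Cd244a had all PD-1- libraries below all CD4 libraries (14.0%).

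For treatment, 0 of 10 receptors passed in PD-1+ Tregs (0.0149% of all genes), 1 in PD-1- Tregs (2.66%), 0 in the CD4 T cells (0.00744%) and 1 in the average over populations (1.23%), in each case Tigit. At an unadjusted p under 0.05 there were 3 in PD-1+ Tregs (8.06% of all genes), 3 in the PD-1- type (20.1%) and 2 in CD4 T cells (1.15%). DESeq2 called 2 (4.55% of all genes), 2 (20.2%) and 1 (0.402%) in the same order, 4 for the average (13.8%) and 7 between the Treg types (21.8%). Treated and isotype libraries did not overlap for 6 of 10 receptors in PD-1+ Tregs (Pdcd1, Tigit, Havcr2 and Cd244a above, Cd200 and Cd96 below), against 19.2% of all genes. They did not overlap for 6 of 10 in PD-1- Tregs (Pdcd1, Tigit, Havcr2, Btla and Vsir above, Cd96 below), against 26.5%, and for 3 of 10 in CD4 T cells (Pdcd1, Tigit and Cd244a above), against 27.9%. No difference of the treatment effect between populations passed for any receptor: PD-1+ minus PD-1- Tregs (1.46% of all genes called, 2 of 10 receptors and 16.4% of all genes with an unadjusted p under 0.05), PD-1+ Tregs minus CD4 T cells (0% of genes, 0 receptors) and PD-1- Tregs minus CD4 T cells (0.975%, 0 receptors). DESeq2 also called none of them.

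**Figure D4:**
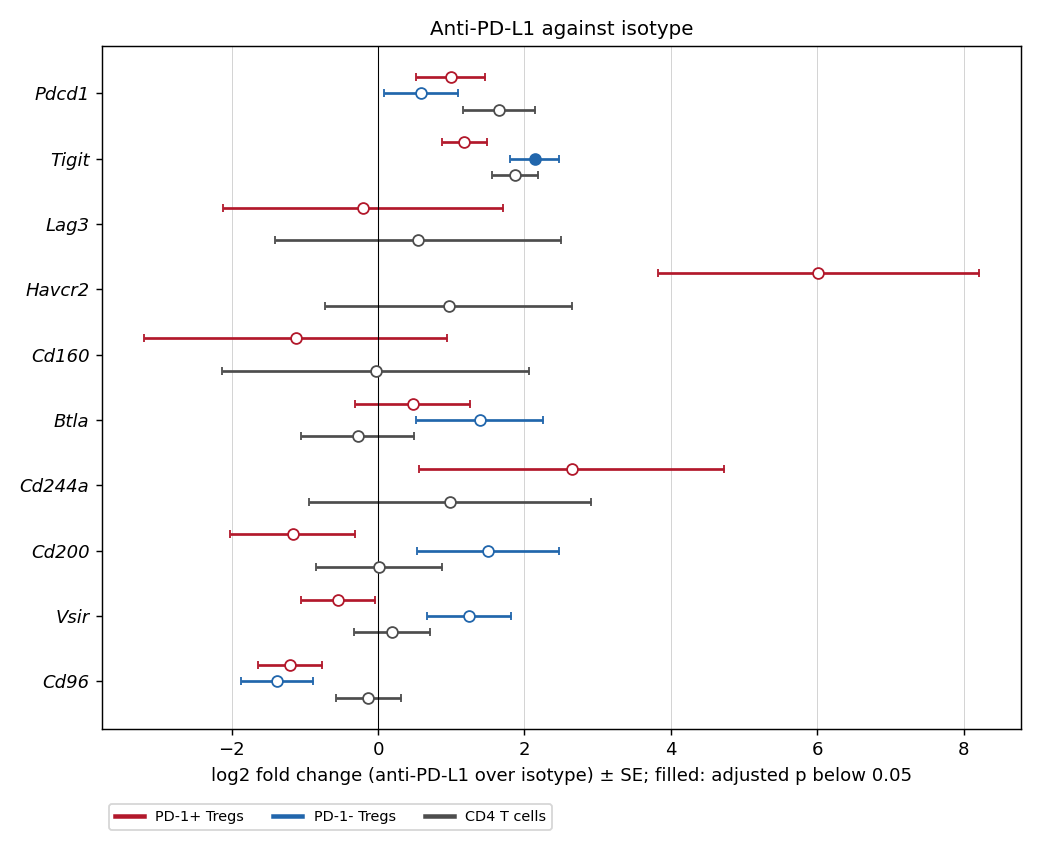
Log2 fold changes of anti-PD-L1 over isotype (horizontal axis) with SE bars for each gene (rows), by population; filled points have an adjusted p below 0.05, and comparisons with at most 1 count in an arm are left out. Tigit in PD-1- Tregs, at 2.14, is the 1 filled point.

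Per kilobase of transcript, in the authors' RPKM, Tigit was the most abundant of the 10 in PD-1+ Tregs (486 ± 180.4 RPKM, n = 5), followed by Cd96 (85.3 ± 60.5), Pdcd1 (68.5 ± 30.7) and Cd200 (59.0 ± 33.0). Tigit also led there in either treatment, at 612 ± 71.6 RPKM in treated (n = 3) and 297 ± 23.4 in isotype libraries (n = 2). In PD-1- Tregs the leading gene differed by treatment. Tigit was at 173 ± 28.1 and Cd96 at 96.3 ± 53.4 RPKM in treated libraries, against 34.8 ± 12.8 for Tigit and 224 ± 33.8 for Cd96 in isotype libraries (n = 2 each). In CD4 T cells Tigit was at 281 ± 81.2, Pdcd1 at 94.4 ± 30.3 and Cd96 at 88.5 ± 20.7 RPKM in treated libraries (n = 3). In isotype CD4 T cells (n = 2) Cd96 was at 97.8 ± 1.68, Tigit at 77.4 ± 2.11, Vsir at 32.9 ± 5.96, Cd200 at 32.4 ± 3.71 and Pdcd1 at 30.2 ± 12.9 RPKM. Pooled over treatments, Havcr2, Lag3, Cd160 and Cd244a were the 4 lowest in every population.

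Tigit, Btla, Cd200 and Cd96 lie within 2.49 Mb of chromosome 16 (43626137 to 46120248). Tigit was higher in PD-1+ than in PD-1- Tregs by the test, while Cd96 gave -0.77 ± 0.33 (adjusted p = 0.185). Tigit overlaps Zbtb20 on the other strand, which had 3613 counts over all libraries against 53619 for Tigit, and Vsir overlaps Cdh23 on the other strand with 822 against 30621. Whether counting used strand is not stated in the labels, so reads of these pairs cannot be told apart for certain.

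By Pearson r of log2(CPM + 2) across the 14 libraries, 8833 genes with a mean of at least 10 CPM were compared with Tigit and with Pdcd1. The genes closest to Tigit were Crem (0.945), Gm6637 (0.928), Klrg1 (0.925), Lockd (0.910) and H1f0 (0.903). Those closest to Pdcd1 were Nkg7 (0.903), Ccl5 (0.889), Mgl2 (0.888), Pqlc3 (0.862) and Crem (0.858). Crem encodes a cAMP-responsive repressor, Klrg1 an inhibitory receptor of differentiated T and NK cells, Nkg7 a protein of cytotoxic granules, Ccl5 a chemokine and Mgl2 a lectin of macrophages and dendritic cells. The libraries share populations, treatments and depth, and these values are descriptions only.

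Of 15 genes for ligands and binding partners, 14 passed the filter. Pdcd1lg2, which encodes PD-L2, a ligand of PD-1 known from dendritic cells and macrophages, was higher in PD-1+ than in PD-1- Tregs (adjusted p = 0.0124), with 84.9, 39.0 and 86.6 CPM in treated and 24.3 and 19.5 in isotype PD-1+ Tregs. In PD-1- Tregs it was at 0 in both treated libraries, against 23.7 and 56.7 CPM in isotype libraries, and fell by the test (adjusted p = 0.00937). The calls of Pdcd1lg2 between populations average over treatments. Among isotype libraries the Treg types overlapped, while both treated PD-1- libraries lay below all treated PD-1+ libraries. The 9 dendritic cell markers summed to 578 and 972 CPM in the treated PD-1- libraries, against 1341 and 1495 in the isotype libraries, with Zbtb46, Xcr1 and Batf3 at 0 in all 4. Flt3 was also at 0 in the isotype libraries. The sums there came from the remaining markers, Ccr7 included, whose shares are not given here. Of the 12 macrophage and monocyte markers, which summed to 763.5 to 935 CPM in treated and 464.5 to 1024 in isotype libraries, Mrc1 fell as well (0 in both treated libraries, against 43.8 and 28.7 CPM in isotype; adjusted p = 0.00204). Fits of the 4 PD-1- libraries alone ended both calls (0.899 each), and limma on log2(RPKM + 1) that of Mrc1 (0.0599). The part of these cells in the values of Pdcd1lg2, Lgals3 or any other ligand gene, in any comparison, was not tested. The fall of Pdcd1lg2 differed from its treatment effect in PD-1+ Tregs (adjusted p = 0.0139). Without either isotype PD-1+ library that call was lost. Lgals3, whose product galectin-3 binds LAG-3, was also higher in PD-1+ Tregs, by 1.24 ± 0.30 (adjusted p = 0.0410), a call lost without any 1 of 11 libraries, all but isotype PD-1- replicate 1, isotype PD-1+ replicate 1 and treated PD-1+ replicate 1 (0.0519 to 0.139), and without the Y-linked libraries. Pdcd1lg2 (adjusted p = 0.0347) and Lgals3 (0.0240) were also lower in PD-1- Tregs than in CD4 T cells; without the Y-linked libraries these were 0.0745 and 0.0921. The Pdcd1lg2 call was lost without any CD4 library, isotype PD-1- replicate 1 or either isotype PD-1+ library (0.0513 to 0.125), the Lgals3 call without either isotype CD4 library or treated CD4 replicate 1 or 3 (0.0568 to 0.0924). The treatment effect on Pdcd1lg2 in PD-1- Tregs also differed from that in CD4 T cells (adjusted p = 0.0204; 0.0375 without the Y-linked libraries), a call lost without any 1 CD4 library (0.0558 to 0.254), in a fit of the libraries compared alone (0.0753) and on log2(RPKM + 1) (0.145). No ligand passed for treatment within PD-1+ Tregs, within the CD4 T cells or on average, and none between PD-1+ Tregs and CD4 T cells. Cd274, the gene of PD-L1 itself, stood at 154 and 105 CPM in treated against 0 and 19.6 in isotype PD-1- Tregs and was not called (adjusted p = 0.292).

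Of 15 transcription factors known to govern these receptors or T cell exhaustion, 3 changed with treatment in PD-1- Tregs, where 2.66% of all genes passed. Tox, a factor of exhausted T cells that sustains PD-1 expression, stood at 221 and 460.4 CPM after anti-PD-L1, against 44.8 and 66.4 after isotype (2.62 ± 0.37, adjusted p = 0.00402; 0.0174 without the Y-linked libraries). Nfatc1, a factor that binds the Pdcd1 promoter, stood at 256 and 109.9 CPM against 24.7 and 24.2 (2.91 ± 0.50, adjusted p = 0.00992; 0.00827 without the Y-linked libraries). Bach2, a repressor that holds T cells in a resting state, was at 0 in both treated libraries, against 32.5 and 166 CPM in isotype libraries (adjusted p = 0.00794; 0.0211 without the Y-linked libraries). These calls held without any single library, but limma-voom ended those of Tox and Nfatc1 and a fit of the 4 libraries alone ended all 3. Tox and Nfatc1 did not pass in PD-1+ Tregs or CD4 T cells, and the treatment effect of all 3 factors differed between PD-1+ and PD-1- Tregs (adjusted p 0.0351 for Tox, 0.0107 for Nfatc1 and 0.0153 for Bach2). That difference was lost for Nfatc1 without isotype PD-1+ replicate 1 (0.0554), for Bach2 without either isotype CD4 or either isotype PD-1+ library (0.0510 to 0.107), and for Tox without any 1 of 10 libraries (0.0556 to 0.135), all but treated PD-1+ replicate 2, isotype PD-1- replicate 2 and both treated PD-1- libraries. The effect in PD-1- Tregs also differed from that in CD4 T cells for Tox (by 2.51, adjusted p = 0.0291), Nfatc1 (by 3.18, 0.0374) and Bach2 (0.0343), calls lost in a fit of the libraries compared alone, and without any CD4 library or either isotype PD-1+ library (up to 0.214, 0.232 and 0.340 in that order), and that of Tox without the Y-linked libraries (0.0736). Limma-voom ended those of Tox (0.255) and Nfatc1 (0.267), and log2(RPKM + 1) all 3. In the average over populations Tox (0.0313) and Bach2 (0.0175) passed, the Tox call being lost without the Y-linked libraries (0.0769). It was also lost without any CD4 library, either isotype PD-1+ library or treated PD-1+ replicate 2 (0.0559 to 0.181), and the Bach2 call without either isotype CD4 library, treated CD4 replicate 3 or isotype PD-1+ replicate 1 (0.0554 to 0.109).

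Between the Treg types Tox (1.13 ± 0.24, adjusted p = 0.0234), Nr4a2 (0.0106) and Tbx21 (0.0323) were higher in PD-1+ Tregs and Tcf7 was lower (-1.42 ± 0.25, adjusted p = 0.00992). That is 4 of 15, where 4.28% of all genes passed in either direction. The fold of Tox averages over treatments, although its treatment effect differed between the Treg types, as given above. Nr4a2, an immediate-early factor downstream of the antigen receptor, stood at 10.7 to 71.6 CPM in PD-1+ against 0 to 0.372 in PD-1- Tregs. Tbx21, the factor of Th1 cells, stood at 0.255 to 52.9 CPM in PD-1+ against 0 to 0.592 in PD-1- Tregs. Tcf7, a factor of resting and stem-like T cells, stood at 107 to 302 CPM in PD-1+ against 337 to 552 in PD-1- Tregs, without overlap, and was also lower in PD-1+ Tregs than in CD4 T cells (-2.21 ± 0.25, adjusted p = 0.00272). The Tox call was lost without isotype PD-1- replicate 1 or isotype PD-1+ replicate 2 (0.0573 and 0.0779 in that order). The Tbx21 call was lost without the Y-linked libraries (0.117) and without any 1 of 10 libraries (0.0505 to 0.112), all but treated PD-1- replicate 1, isotype PD-1+ replicate 1 and treated PD-1+ replicates 1 and 3. In PD-1- Tregs against CD4 T cells Nr4a2 (0.0221), Tbx21 (0.0231) and Bach2 (0.0253) were lower. Each of these was lost without either isotype CD4 library or treated CD4 replicate 1 or 3, and Tbx21 also without treated CD4 replicate 2 or isotype PD-1- replicate 1, with adjusted p up to 0.0781 for Nr4a2, 0.0674 for Tbx21 and 0.101 for Bach2. Without the Y-linked libraries Tbx21 (0.0935) and Bach2 (0.0578) were lost.

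Of 15 other inhibitory receptors, 5 were higher in PD-1+ than in PD-1- Tregs and none lower, where 4.28% of all genes passed: Lilrb4a, Pirb, Pilra, Lair1 and Cd22. Pirb, a paired immunoglobulin-like receptor of myeloid and B cells, stood at 18.4 to 41.5 CPM in PD-1+ Tregs and was at 0 in all PD-1- libraries (adjusted p = 0.00482). Pilra (0.0191) and Lair1 (0.0196) stood at 44.2 to 112 and 8.57 to 51.7 CPM in PD-1+ Tregs, against 0 to 8.85 and 0 to 1.43 in PD-1- Tregs. Pilra was lost without the Y-linked libraries (0.0886). Lilrb4a (0.0351) was lost without any 1 of 12 libraries, all but the treated PD-1- pair (up to 0.0896). Cd22 (0.0248), a receptor of B cells, was lost without either isotype CD4 library, treated CD4 replicate 1 or 3, either isotype PD-1- library, treated PD-1- replicate 2 or isotype PD-1+ replicate 2 (up to 0.0629). Of these 5, all are known from myeloid or B cells, whose markers are given above, and the part of such cells was not tested. Ctla4, the receptor that competes with CD28 for CD80 and CD86, was higher than in CD4 T cells both in PD-1+ Tregs (1.92 ± 0.34, adjusted p = 0.0316; lost without either isotype CD4 library, treated CD4 replicate 1 or 2, isotype PD-1+ replicate 1 or treated PD-1+ replicate 1 or 3, up to 0.240) and in PD-1- Tregs (2.19 ± 0.35, adjusted p = 0.00697), and did not differ by the test between the Treg types (-0.28 ± 0.34, adjusted p = 0.827). Cd22, Lair1, Pilra and Pirb were lower in PD-1- Tregs than in CD4 T cells (adjusted p 0.0350, 0.0231, 0.0318 and 0.00596); all but Pirb were lost without either isotype CD4 library or treated CD4 replicate 1 or 3, and Pilra (0.127) and Cd22 (0.0587) without the Y-linked libraries. With treatment, Cd6 was the 1 of 15 that passed, in PD-1- Tregs, where 2.66% of all genes passed. It was higher in treated libraries at 704 and 525 CPM against 98.0 and 84.8 in isotype (adjusted p = 0.0481). That call was lost without any 1 of 11 libraries, all but treated PD-1- replicate 2 and treated PD-1+ replicates 2 and 3.

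Of 14 signalling partners, such as the phosphatases Ptpn6 and Ptpn11, none passed with treatment in any population, and 1, Sh2d1b1, which encodes an adaptor of 2B4, was higher in PD-1+ than in PD-1- Tregs (adjusted p = 0.0360; 0.144 without the Y-linked libraries, and lost without any 1 of 12 libraries, all but isotype PD-1+ replicate 2 and treated PD-1+ replicate 3). Sh2d1b1 was at 0 in all 4 PD-1- libraries and in isotype PD-1+ replicate 2. Between the Treg types 4.28% of all genes passed in either direction, against this 1 of 14. Of 8 activating counterparts, Icos, a costimulatory receptor of the CD28 family, rose with treatment in the average over populations (1.25 ± 0.18, adjusted p = 0.00797; 0.00477 without the Y-linked libraries) and was called in all 22 settings. In that average 1.23% of all genes passed. Icos stood at 559, 492 and 616 CPM in treated against 244 and 209 in isotype PD-1+ Tregs, at 759.9 and 328 against 256 and 234 in PD-1- Tregs, and at 328, 425 and 412 against 161 and 156 in CD4 T cells, without overlap in any. Cd84, a receptor of the SLAM family, was higher in PD-1+ than in PD-1- Tregs (1.64 ± 0.37, adjusted p = 0.0284), a call lost without either isotype CD4 library, treated CD4 replicate 1 or 3, or isotype PD-1+ replicate 1 (up to 0.0857), and without the Y-linked libraries (0.0683). Cd226, the activating partner of TIGIT for their shared ligands, was not called in any comparison.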

How the data were processed

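Raw counts per gene and RPKM (reads scaled by gene length and depth) were deposited by the authors for 14 libraries. Per the submitters' processing notes, HISAT2 2.0.4, SAMtools, HOMER 3.12 and DESeq2 were used with mm10; their settings are not stated there. The 10 receptors and all gene lists were chosen with earlier results of these data known. Counts were fitted with edgeR 4.0.16 in R 4.3.3 (TMM, filterByExpr with a minimum count of 10, robust quasi-likelihood F-test, 6 group means over all 14 libraries), with Benjamini-Hochberg adjustment over 13434 genes and a threshold of 0.05. Adjusted p-values are from this test unless another tool is named. Population comparisons average over treatments, and SE is the fold divided by the root of F. The common biological coefficient of variation was 1.22, which limits what 2 or 3 libraries per group can show. CPM used TMM-scaled library sizes. A count of 0 was bounded at 3 counts per library; 95% intervals of count ratios cover counting error only. Alternatives used DESeq2 1.42.0, limma 3.58.1 (voom, and log2(RPKM + 1) or log2(RPKM + 0.1)), other size factors, no filter, replicate blocks and left-out libraries. The fit was also run on simulated independent libraries with far less spread than these data, so that run cannot show how it performs at the spread found here. Genes were named by list membership, and from the lists those past the threshold; Cd274, Foxp3 and Il2ra were named as sort and treatment genes, and Cd226 outside that rule, after its values were seen.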

Additional observations from a re-analysis of the deposited data

How the results depend on the processing

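Of 2350 comparisons of a receptor between the reported fit and 1 of 24 alternatives, 2235 kept their side of the threshold, 78 lost the call, 37 gained it and none turned round while called. With DESeq2, treatment called 2 receptors in PD-1+ Tregs, 2 in the PD-1- type, 1 in CD4 T cells and 4 on average, and 7 were called between the Treg types, against 0, 1, 0, 1 and 4 as reported; DESeq2 also called more of all genes (4.55%, 20.2%, 0.402%, 13.8% and 21.8%). Limma-voom called 2 in PD-1+ Tregs and 2 on average, log2(RPKM + 1) called 1 in PD-1+ Tregs, and log2(RPKM + 0.1) called 1 in CD4 T cells. Fits of only the libraries compared called 0 for treatment in PD-1- Tregs and 1 between the Treg types. Without the Y-linked libraries 2 were called for treatment in PD-1- Tregs and 1 between PD-1- Tregs and CD4 T cells. With 1 library left out, the counts ran between 2 and 5 for PD-1+ against PD-1- Tregs, 0 and 1 for PD-1+ Tregs against CD4 T cells, 0 and 4 for PD-1- Tregs against CD4 T cells, 1 and 2 for the average treatment effect, and 0 and 1 for the difference of treatment effects between the Treg types. Over all genes, treatment in PD-1- Tregs then called 196 to 1008, against 358 as reported. The causes were not tested.

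Of 31 pairs with the same title number none had correlated deviations from their group means over 0.1 (median 0.00431). Nor had any of 13 pairs with the same treatment and bracket number (median 0.00832). The libraries with Y-linked counts were nevertheless the anti-PD-L1 libraries with bracket number 3 in each population. These correlations therefore cannot decide whether libraries share animals or pools, which the labels do not state. With the title number as a replicate block 2 receptors were called between the Treg types and 0 between PD-1- Tregs and CD4 T cells; with the bracket number 1 and 0.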
